A study of Mus musculus with 2 samples.

Results

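The genes described here are 10 members of the NF-κB system, taken from the deposited tables by their symbols out of 23238 distinct symbols. They are 5 NF-κB subunits (Nfkb1, Nfkb2, Rela, Rel and Relb) and 5 feedback inhibitors (Nfkbia, Nfkbie, Nfkbiz, Bcl3 and Tnfaip3), and each symbol was found on a single row. Naïve CD4+ T cells from the spleens of female wild-type C57BL/6 mice, used at 7 to 10 weeks of age, were activated with anti-CD3ε and anti-CD28 antibodies. They were cultured for 1 day with IL-2 (1 ng/ml), TGF-β1 (5 ng/ml) and antibodies against IFN-γ and IL-4, the conditions that induce Treg cells. The control culture received the vehicle DMSO, and the treated culture received 10 μM Tubastatin A (TSA), an inhibitor of the deacetylase HDAC6. The comparison asks how gene expression differed early in Treg induction when HDAC6 was inhibited, and it rests on 1 library per condition, so no difference below has a replicate check. Both cultures were a mixture of cells, in which a smaller share of expressing cells and less RNA per cell cannot be told apart.

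NF-κB proteins bind DNA as dimers of Rel-family subunits. RelA, c-Rel and RelB carry activation domains, whereas the Nfkb1 and Nfkb2 products p105 and p100 are precursors of p50 and p52, which lack them. In resting cells the dimers are held by IκB proteins, and signals from the T cell receptor and CD28 lead to destruction of the IκBs by way of the IκB kinase (IKK). Many of the inhibitors are themselves NF-κB target genes and therefore form feedback loops. In T cells the system drives activation and survival, and c-Rel is known for its part in inducing Foxp3, the lineage factor of Treg cells.

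RefSeq windows of 300 bases (GRCm38.p6, from 250 bases before a start to 50 after it) were held for 7 of the 10 genes, with 10 windows in all. Each was searched on both strands for the κB consensus, the 10-base element that NF-κB dimers recognise. A match was present for 6 of these 7 genes (85.7%), and Rela was the gene without one. Among all 27025 symbols with a window, 9.55% held a match, and of the further inhibitors and A20 partners described later 5 of 8 did so (62.5%), so the element is not particular to the 10 genes. Positions are counted from the start, with -1 for the base before it. Matches that overlapped, including those read on opposite strands of a palindromic element, were joined into 1 site. Of the 10 sites found, the 6 nearest to a start, 1 for each gene, are shown so that the elements can be compared between the genes, with the match in capitals and each sequence written along the strand of its gene.
Nfkbia, chr12:55492657-55492686, minus strand: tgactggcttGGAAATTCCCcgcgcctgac
Nfkbie, chr17:45555584-45555613, plus strand: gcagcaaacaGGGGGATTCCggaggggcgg
Nfkb2, chr19:46304716-46304745, plus strand: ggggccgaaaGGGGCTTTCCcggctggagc
Rel, chr11:23771041-23771070, minus strand: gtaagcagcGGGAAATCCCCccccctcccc
Bcl3, chr7:19822734-19822763, minus strand: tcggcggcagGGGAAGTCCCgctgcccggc
Tnfaip3, chr10:19015403-19015432, minus strand: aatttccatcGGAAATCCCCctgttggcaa

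The first base of the match stood at -29 for Nfkbia, -106 for Nfkbie, -11 for Nfkb2, -92 for Rel, 3 for Bcl3 and -12 for Tnfaip3. Nfkb2 held 4 separate sites over its 3 annotated starts, and Tnfaip3 held 2 at the first of its 2 starts. With a looser pattern of 3 G, any 5 bases and 2 C, searched on both strands, all 7 genes held a match, but so did 53.5% of all symbols, and every match to the consensus is also a match to this pattern. A match describes the sequence only, and binding was not measured here. The windows of Nfkbia and Nfkbie each held 1 match to the consensus, and 2 and 3 matches to the looser pattern, that one included. To show where the consensus match sits, the 250 bases before the start are given for these 2 genes, with only that match in capitals. Nfkbia had the most reads of the 10 genes, and Nfkbie differed most between the libraries.
Nfkbia, chr12:55492648-55492897, minus strand: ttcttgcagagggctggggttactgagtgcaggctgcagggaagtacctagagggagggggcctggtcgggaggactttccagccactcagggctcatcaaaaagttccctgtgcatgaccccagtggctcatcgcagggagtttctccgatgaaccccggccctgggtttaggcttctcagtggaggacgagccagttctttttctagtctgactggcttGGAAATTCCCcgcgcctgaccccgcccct
Nfkbie, chr17:45555450-45555699, plus strand: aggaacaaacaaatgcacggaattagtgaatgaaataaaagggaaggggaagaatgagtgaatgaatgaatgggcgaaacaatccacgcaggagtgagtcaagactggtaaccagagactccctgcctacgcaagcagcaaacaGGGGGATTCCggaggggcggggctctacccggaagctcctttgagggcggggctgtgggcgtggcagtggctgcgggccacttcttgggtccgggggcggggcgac

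**Figure D1:**
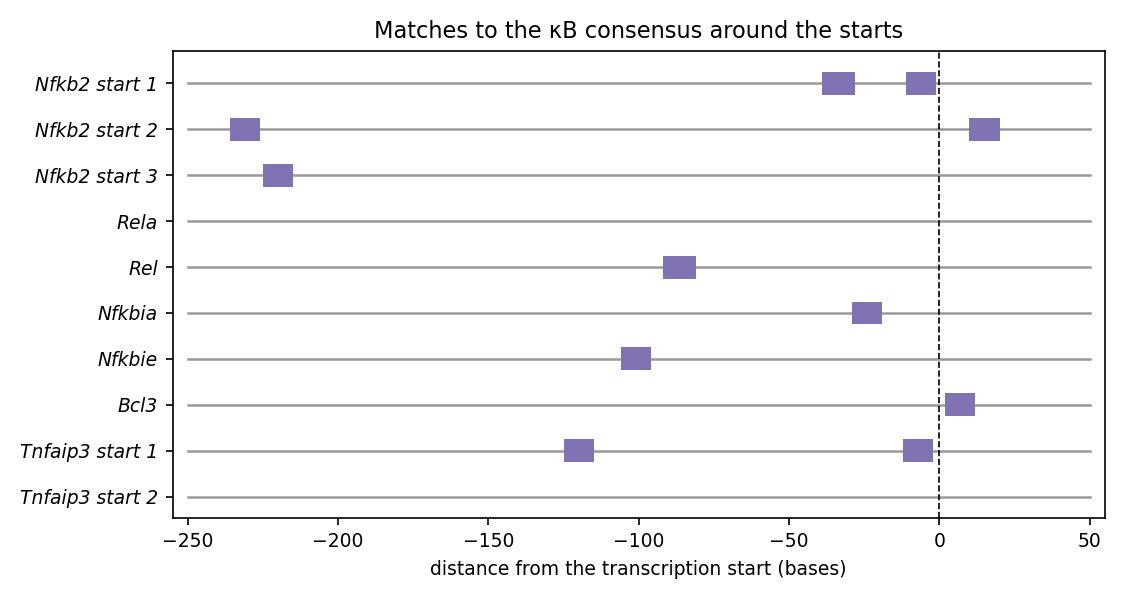
Each grey line is a RefSeq window around a transcription start, drawn by distance from that start in bases, and each purple box is a site that matches the κB consensus on either strand. Sites lie between -125 and the start for Nfkbia, Nfkbie, Rel, Tnfaip3 and the first Nfkb2 start, at 3 for Bcl3, and Rela has none.

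The kit used, QuantSeq, reads the 3′ end of each transcript, so that read numbers were not divided by gene length. Each deposited value was log2 of a normalized count plus 1, and the reads behind it were recovered from the spacing of the low values. The libraries held 10845868 reads (control) and 10431890 reads (TSA). Of 6 markers chosen for CD4 T cells, 5 were rows of the tables, and they had 602 to 4531 reads in either library. The 5 Treg markers summed to 12998 reads in the control and 10709 in the TSA library, and the 2 CD8 markers to 80 and 87. Il2ra alone gave 8851 and 7511 of the Treg marker reads, so the sums mostly reflect that gene. Foxp3 had 1633 reads in the control and 965 in the TSA library, where its log2 difference was -0.77. The 22 listed markers of B cells, myeloid cells, dendritic cells, NK cells and erythroid cells summed to 86 reads in the control and 129 in the TSA library, and 6 of them were at 0 in both. The highest single value among them was 33 reads, for Flt3 in the TSA library against 0 in the control, and the part of such cells in the values below was not tested.

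Among the subunits, the TSA library held less Nfkb2 and slightly less Nfkb1 than the control, and more Relb, while Rela and Rel did not differ beyond counting error. Fold changes are TSA over control. They were taken from the deposited values, each with a 95% interval computed from the reads (exact, Clopper-Pearson), which covers counting error alone and compares these libraries rather than the treatments. A normalized count corresponds to almost exactly 1 read, at 1.005 per read in the control and 0.9952 in the TSA library. Every gene lies where GENCODE M21 places a protein-coding gene on GRCm38.

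Nfkb2 (chr19:46304320-46312385, plus strand), the precursor of p52, had a normalized count of 2863 in the control and 2316 in the TSA library, from 2849 and 2327 reads. Its fold change was 0.809 (95% interval 0.765 to 0.855), the lowest among the subunits. The last 299 bases of Nfkb2 overlap Psd on the opposite strand, which had 211 and 230 reads. Whether the counting used strand is not given in the sources used here.

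Nfkb1 (chr3:135584655-135691547, minus strand), which encodes the p50 precursor, had a normalized count of 1814 in the control and 1650 in the TSA library. The fold change was 0.909 (0.850 to 0.973), a difference that did not exceed counting error with total-read scaling (0.893 to 1.02), in which values are divided by the reads of the whole library. The ratio of Nfkb1 to Nfkb2 reads was 0.634 in the control and 0.713 in the TSA library, 1.12 times as high (1.03 to 1.23).

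Relb (chr7:19606217-19629438, minus strand), the usual partner of p52 in the non-canonical pathway, went the other way. Its normalized count was 1138 in the control and 1395 under TSA, and the fold change was 1.23 (1.13 to 1.33). The interval also lay above no change with total-read scaling, at 1.19 to 1.39.

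Rela (chr19:5637483-5648130, plus strand), the p65 subunit of the canonical pathway, had normalized counts of 1034 and 1043, which gave a fold change of 1.01 (0.924 to 1.10). Rel (chr11:23736847-23770970, minus strand), which encodes c-Rel, had the fewest reads of the subunits, with normalized counts of 333.5 in the control and 299.5 in the TSA library. Its fold change was 0.898 (0.766 to 1.05), so a modest difference in Rel could not be detected at this depth. The intervals of both genes included no change.

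**Figure D2:**
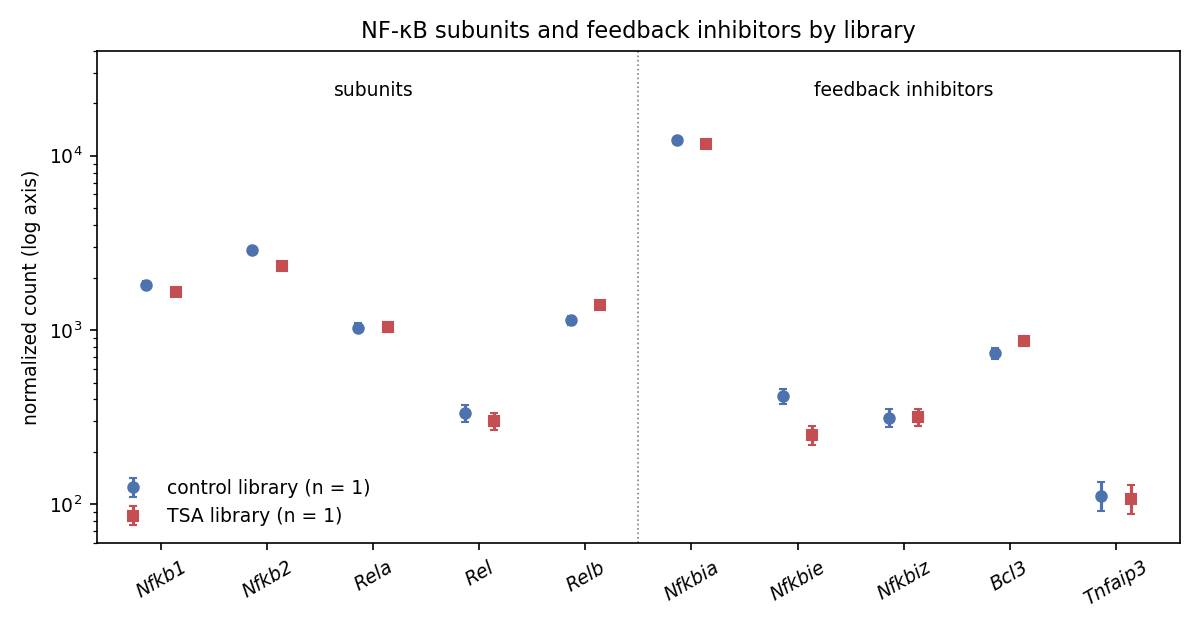
Normalized count (log axis) of each gene in the control library (blue circles) and the TSA library (red squares), 1 library each, with exact Poisson 95% intervals as bars. Nfkbia stands at 12287 and 11689, and the separation is widest for Nfkbie, at 416 in the control and 249.7 in the TSA library.

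Among the inhibitors, Nfkbie was clearly lower in the TSA library and Bcl3 was somewhat higher, whereas Nfkbia, Nfkbiz and Tnfaip3 were close to the control. Nfkbie (chr17:45555703-45563169, plus strand) encodes IκBε, a cytoplasmic IκB that is resynthesised after activation. It had a normalized count of 416 in the control (counting interval 377 to 458) and 249.7 in the TSA library (220 to 283), so the counting intervals did not overlap. The fold change was 0.601 (0.511 to 0.704), the largest difference of the 10 genes in either direction. With total-read scaling the interval was 0.537 to 0.739.

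Nfkbia (chr12:55489410-55492647, minus strand) encodes IκBα, the main cytoplasmic inhibitor of RelA and c-Rel dimers. Its normalized count was 12287 in the control and 11689 in the TSA library, which made it the gene at rank 82 by level among 12164 tested genes. The fold change of 0.951 (0.927 to 0.976) had an interval below no change under the deposited scaling. Scaled by total reads, the interval was 0.974 to 1.02 and the log2 difference -0.002.

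Bcl3 (chr7:19808462-19822770, minus strand), a nuclear IκB-like protein that binds p50 and p52 homodimers and modifies their transcriptional activity, had a normalized count of 736.8 in the control and 862.5 in the TSA library. Its fold change was 1.17 (1.06 to 1.29), and 1.11 to 1.36 was the interval with total-read scaling. Antisense transcripts are annotated on the opposite strand within the gene, and their reads were not analysed here.

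Nfkbiz (chr16:55811375-55838899, minus strand), another nuclear IκB, had normalized counts of 313.5 and 316.4, giving a fold change of 1.01 (0.861 to 1.18). Tnfaip3 (chr10:19000910-19015657, minus strand), which encodes the ubiquitin-editing enzyme A20 that shuts off signalling upstream of IKK, had the fewest reads of all, 111 in the control and 108 in the TSA library. Its fold change of 0.964 (0.732 to 1.27) was compatible with differences of over 25% in either direction at this depth. For these 2 genes no difference could be detected.

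**Figure D3:**
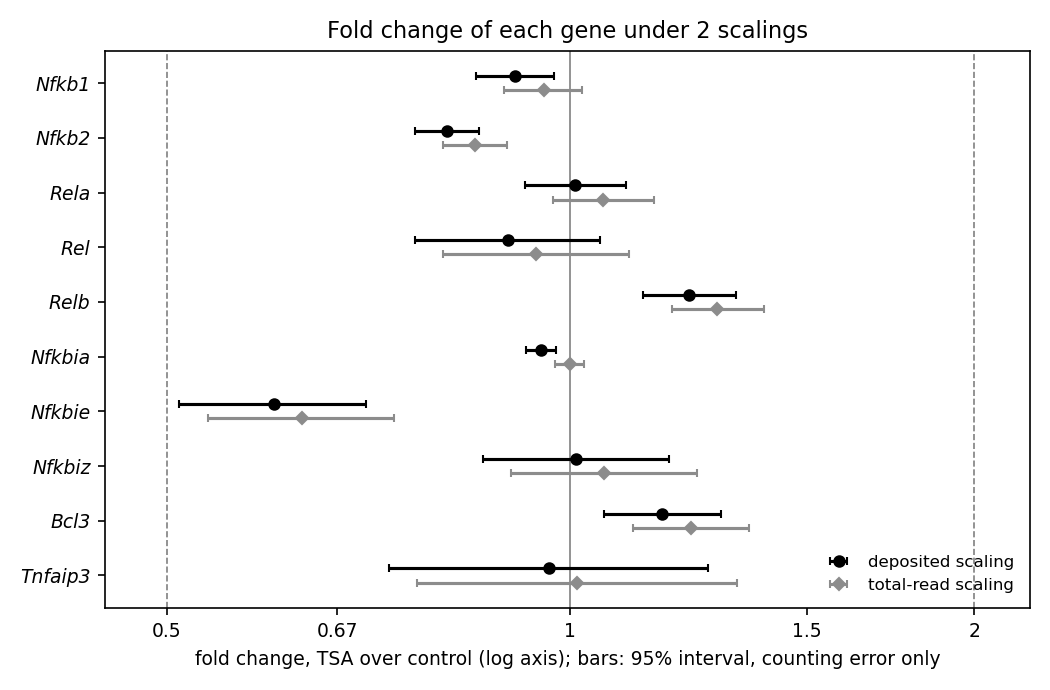
Fold change (TSA over control, log axis) of each gene with its 95% interval from the reads, under the deposited scaling (black) and with the libraries scaled by total reads (grey). Relb and Bcl3 lie to the right of 1 and Nfkb2 and Nfkbie to the left under both scalings, and no gene reaches the dashed lines at 0.5 and 2.

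None of the 10 genes passed 2-fold, the threshold of the study. Of the 12164 genes with at least 10 reads in a library, called tested here, 11.5% lay more than 2-fold above and 3.15% more than 2-fold below the control. All 10 genes had a mean normalized count of at least 100, and among the 8188 tested genes with such a level the shares were 1.48% above and 1.31% below. At 1.5-fold, Nfkbie alone passed, as a lower gene, against 5.90% lower and 6.05% higher among genes of that level (8.34% and 18.7% of all tested genes). The interval excluded no change for 6 of the 10 genes. It lay below 1 for 4 (Nfkb1, Nfkb2, Nfkbia and Nfkbie), where 36.5% of genes of that level did so, and above 1 for 2 (Relb and Bcl3), where 23.4% did so. Among all tested genes the shares were 28.0% below and 28.1% above. With total-read scaling the interval lay below 1 for 2 (Nfkb2 and Nfkbie) against 27.8% of genes of that level, and above 1 for the same 2 as before against 30.2%. The numbers of NF-κB genes on either side were close to this background, which was not matched to the reads of the 10 genes. Intervals narrow as reads rise, and the 10 genes ranged from rank 82 to rank 8008 by level. The median log2 difference of the 10, -0.063 (0.0073 with total-read scaling), was near that of genes with a mean of at least 100, -0.058.

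**Figure D4:**
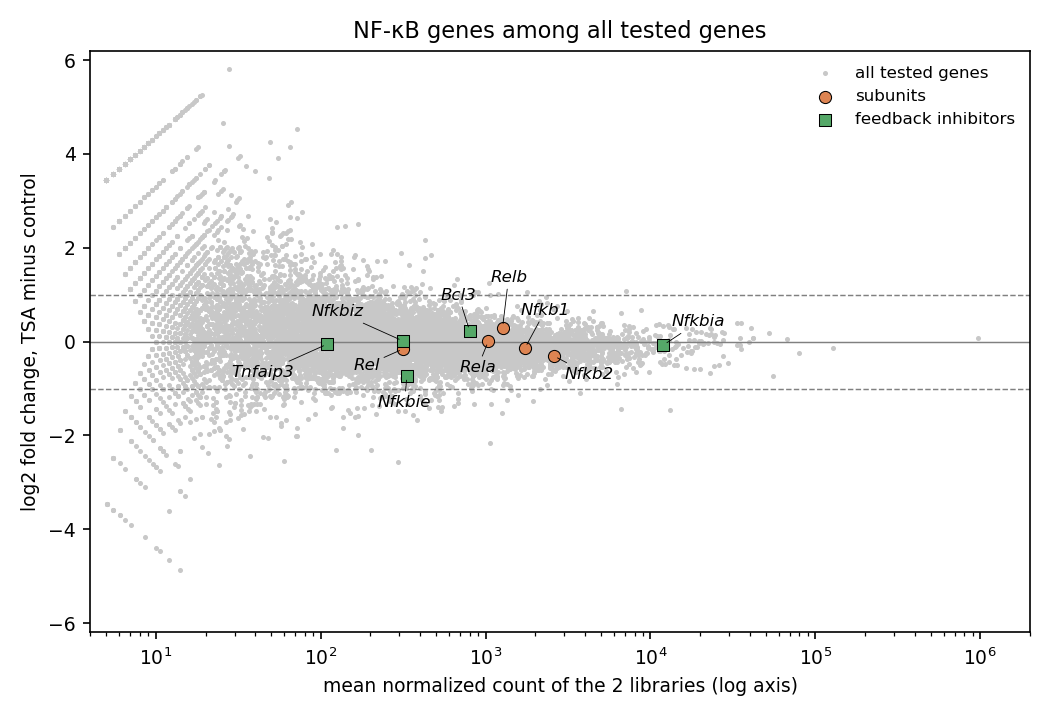
Log2 difference (TSA minus control) against the mean normalized count (log axis) for all 12164 tested genes (grey), with subunits as orange circles and feedback inhibitors as green squares. The NF-κB genes lie inside the cloud and within the dashed 2-fold lines, with Nfkbie lowest at -0.73 and Relb highest at 0.29.

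Ratios between genes within a library do not depend on the scaling between libraries, so the make-up of each class was compared in this way. In the control, Nfkb2 gave 39.9% (95% Clopper-Pearson interval 38.7% to 41.0%) of the 7147 subunit reads, and in the TSA library 34.5% (33.4% to 35.7%) of 6736. Relb went from 15.8% (15% to 16.7%) to 20.8% (19.8% to 21.8%). For both genes the intervals of the libraries did not overlap. Nfkb1 (25.3% and 24.6%), Rela (14.4% and 15.6%) and Rel (4.65% and 4.47%) kept shares whose intervals overlapped. The ratio of Nfkb2 to Relb reads, the genes of the p52 and RelB partners, was 2.52 (2.35 to 2.70) in the control and 1.66 (1.55 to 1.77) in the TSA library, which is 0.659 times as high (0.599 to 0.726). The ratio of Rela to Relb reads was also lower, at 0.909 in the control and 0.748 in the TSA library, so Relb gained on the canonical subunit as well.

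Nfkbia dominated the inhibitors, with 88.6% of 13796 reads in the control and 88.4% of 13289 in the TSA library. Nfkbie went from 3% (2.72% to 3.30%) to 1.89% (1.66% to 2.13%) of the inhibitor reads, and Bcl3 went from 5.31% (4.94% to 5.70%) to 6.52% (6.11% to 6.96%). The shares of Nfkbiz (2.26% and 2.39%) and Tnfaip3 (0.805% and 0.813%) had overlapping intervals. For each read of Nfkbie there were 29.5 reads of Nfkbia in the control (26.8 to 32.6) and 46.8 in the TSA library (41.3 to 53.2). The inhibitors that moved apart most were Nfkbie and Bcl3, whose read ratio went from 0.565 (0.499 to 0.638) to 0.290 (0.251 to 0.334).

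**Figure D5:**
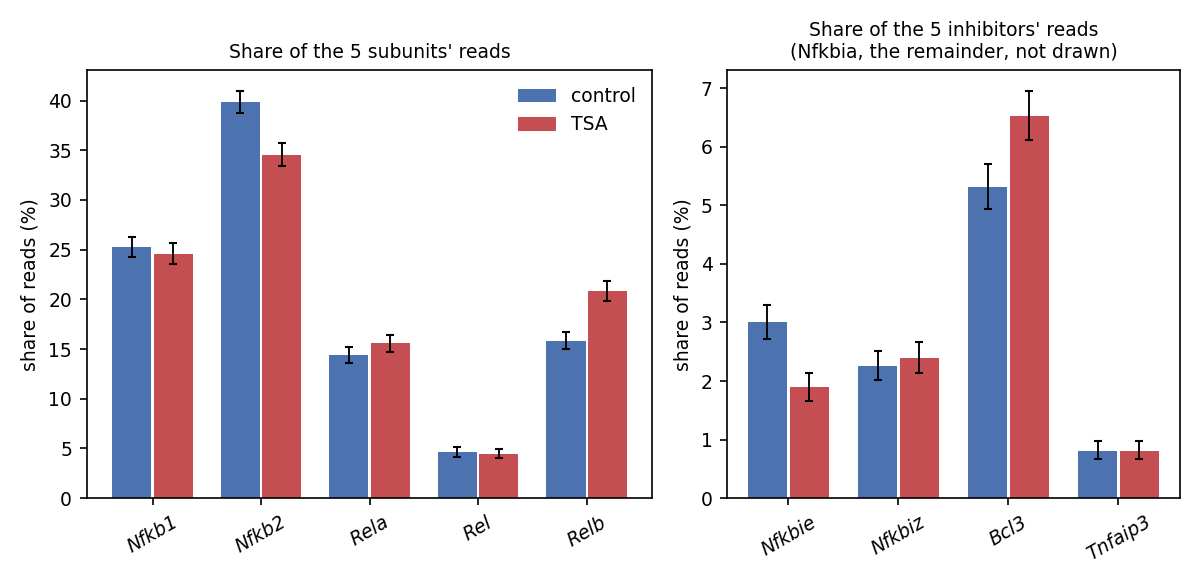
Share of the subunits' reads (left) and of the inhibitors' reads (right, without Nfkbia) that came from each gene in the control (blue) and TSA (red) library, with exact 95% binomial intervals. Relb takes 15.8% and 20.8% of the subunit reads, Nfkb2 39.9% and 34.5%, and Nfkbie 3% and 1.89% of the inhibitor reads.

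The ratio of inhibitor to subunit reads was nearly the same in both libraries, and it does not measure NF-κB activity. Inhibitor reads per subunit read were 1.93 (1.88 to 1.99) in the control and 1.97 (1.92 to 2.03) in the TSA library, a change of 1.02 times (0.981 to 1.06), and Nfkbia gave most of the inhibitor reads behind it. Of the 45 possible pairs among the 10 genes, the widest shift was between Relb and Nfkbie, the highest and the lowest of them by fold change, whose ratio was 2.73 in the control and 5.59 in the TSA library, 2.04 times as high (1.71 to 2.44). That interval makes no allowance for the choice of the most extreme of the 45 pairs.

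Other genes of the pathway were taken from 4 lists. These lists were not limited to a mean of at least 100, as the background shares are, and Tnip3 was below that level. Among 10 further inhibitors and partners of A20, the interval lay above 1 for 2 and below 1 for 4 (2 and 3 with total-read scaling). Of the tested genes with a mean of at least 100, 23.4% lay above and 36.5% below (30.2% and 27.8% with total-read scaling), shares close to those of this list. Tnip3, an A20-binding protein, passed 2-fold from few reads (9 in the control and 24 in the TSA library, log2 difference 1.31), and Nfkbid, a nuclear IκB, followed with 1484 and 1669 reads and 0.16. The lowest were Otulin, which removes linear ubiquitin chains (1007 and 790 reads, -0.36), and Nfkbib, which encodes IκBβ (4262 and 3562 reads, -0.27). IκBβ and IκBε transcripts were thus both lower in the TSA library, though each was picked as among the lowest of its list. The IκBα transcript was close to the control, and its interval lay below no change with the deposited but not with total-read scaling.

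Among 12 genes of the IKK complex, its kinases and its adaptors, 3 had an interval above 1 and 4 below 1 (5 and 2 with total-read scaling), and none passed 2-fold. The shares of all tested genes with a mean of at least 100 were 23.4% above and 36.5% below under the deposited scaling, and 30.2% and 27.8% with total-read scaling. Nothing particular to the IKK genes is read from these numbers. Birc2, a ubiquitin ligase that restrains the non-canonical pathway, was highest with 337 and 441 reads (0.37), followed by Map3k7, the kinase TAK1, with 1069 and 1320 (0.29). Traf2, an adaptor in the same ligase complex as Birc2, was lowest with 237 and 156 reads (-0.61), followed by Chuk, which encodes IKKα, with 411 and 333 (-0.32). Ikbkb, encoding IKKβ, had a fold change of 1.08 (0.979 to 1.19), and Map3k14, encoding the non-canonical kinase NIK, of 0.978 (0.815 to 1.17). Both kinases were named for their roles after their values were seen. Their intervals included no change under the deposited scaling, but with total-read scaling that of Ikbkb lay above it (1.03 to 1.25), and that of Map3k14 did not (0.856 to 1.23). Of 4 genes that link the antigen receptor to NF-κB, 1 had an interval above 1 and 1 below 1 (2 and 0 with total-read scaling), too few to set against the same background. Cd28 was higher (1848 and 2128 reads, 0.19) and Prkcq, encoding PKCθ, was lower (273 and 225 reads, -0.29), though the interval of Prkcq did not exclude no change with total-read scaling. The intervals of Bcl10, a signalling adaptor, and Malt1, a paracaspase, included no change under the deposited scaling, with log2 differences of -0.06 and 0.14. With total-read scaling the interval of Malt1 lay above no change (1.02 to 1.30), and that of Bcl10 still included it, with a log2 difference of 0.01.

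Known NF-κB target genes of T cells lay on both sides of no change. Of 20 listed genes 19 had enough reads, and the interval lay above 1 for 6 and below 1 for 9 (8 and 7 with total-read scaling), where 23.4% and 36.5% of tested genes with a mean of at least 100 did so (30.2% and 27.8% with total-read scaling). Nothing particular to these genes is read from the counts. Their median log2 difference was -0.13 (-0.058 with total-read scaling), and that of tested genes with a mean of at least 100 was -0.058 (0.012 with total-read scaling). Ier3, an early response gene, was the one that passed 2-fold, with 148 reads in the control and 317 in the TSA library (log2 difference 1.08), and Irf1, an interferon regulatory factor, was next with 5208 and 8028 reads (0.61). The lowest were the chemokine gene Ccl3, with 438 and 237 reads (-0.90), and Traf1, a signalling adaptor, with 386 and 251 reads (-0.63). Csf2 had 2 reads in the control and 0 in the TSA library, within the 3 reads that a count of 0 allows, and no fold change is given for it. Hdac6 itself, whose enzyme activity rather than transcript is the target of TSA, had 146 and 166 reads, for which the fold change was 1.12 (0.896 to 1.42).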

How the data were processed

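RNA from 1 control and 1 TSA culture was sequenced from QuantSeq libraries as single-end 75-nt reads. Bowtie2, bedtools and mm10 (GRCm38) are named in the submitters' processing notes, and the authors used ExDEGA. The normalization is not given in the sources used here. The deposited values are log2 of a normalized count plus 1 for 23282 rows. Taken out of the log2 scale, they were whole multiples of 1.005 (control) and 0.9952 (TSA) within 0.1 read for 99.7% and 99.0% of values under 300 reads, and reads were recovered by division and rounding. The log2 difference is TSA minus control of the deposited values, with their pseudocount of 1. Genes with at least 10 reads in a library were tested against a 2-fold threshold. With 1 library per condition no p-value was computed. Ratios of ratios have exact conditional 95% intervals. All intervals cover counting error only, since 1 library per condition shows no spread between cultures. Copies of a molecule made by PCR count as separate reads, so the intervals may be too narrow even for counting error.

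The genes, lists and pairs were chosen with earlier results of these data known. Text names all 10 genes, the drug target and, of longer lists, genes past 2-fold and the 2 highest and 2 lowest. A gene of these lists is not reported here. Reference data were GENCODE M21 and RefSeq (GRCm38.p6). Alternatives covered the scaling, pseudocount, filter and threshold. The steps were tested on simulated data. Intervals came from scipy 1.17.1, tables from pandas 2.3.3 and numpy 2.4.6, and figures from matplotlib 3.10.9, run in Python 3.11.15.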

Additional observations from a re-analysis of the deposited data

How the results depend on the processing

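No paired analysis was possible because each condition had 1 library, and for the same reason no library could be left out. Filters on low values cannot alter the log2 difference of a single gene. Of the 60 recomputed with another scaling or pseudocount, 58 stayed within the interval of the deposited scaling and none changed sign among the genes whose interval excluded no change. The other 2 were Nfkbia with total-read scaling (-0.002) and upper-quartile scaling (-0.030). Tnfaip3, within counting error throughout, turned from -0.053 to 0.016 with total-read scaling. Both scalings left Relb and Bcl3 above and Nfkb2 and Nfkbie below no change, and Nfkb1 and Nfkbia within counting error of it. Total-read scaling raised the median of all tested genes by 0.070 and turned the median of the 10 genes from -0.063 to 0.0073, and 27.8% of genes with a mean of at least 100 then had an interval below 1. The ribosomal RNA precursor Rn45s, named after its values were seen, took 8.72% of control and 9.63% of TSA reads. At 1.5-fold, 1 of the 10 genes, 6 genes of the pathway lists (3 higher and 3 lower) and 3293 of 12164 tested genes passed. Of the tested genes, 18.7% were higher and 8.34% lower at that threshold. With 10 reads in both libraries, 1 pathway gene and 747 of 10909 genes passed 2-fold. With a mean of at least 100 the numbers were 1 and 228 of 8188. With the whole interval beyond 2-fold they were 0 and 704 of 12164. Without a filter 4017 of 15634 genes passed 2-fold. Without Nfkbia and Nfkb2, the inhibitor to subunit ratio changed by 0.959 times (0.883 to 1.04) in place of 1.02. Of all genes past 2-fold, 78.5% were higher with the deposited scaling and 53.1% with a mean of at least 100. Depth limited Tnfaip3 most.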

Other observations

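Relb and Bcl3, both higher in the TSA library, lie on the same stretch of chromosome 7, with 179 kb between them. Of the 10 protein-coding genes annotated in that interval, 4 had enough reads, and they were looked up after the values of Relb and Bcl3 were seen. Tomm40, a subunit of the mitochondrial import pore, had 2332 reads in the control and 1847 in the TSA library, a log2 difference of -0.35. Clptm1, a membrane protein gene, had 719 and 589 reads and a log2 difference of -0.30. Apoe, encoding apolipoprotein E, had 75 and 89 reads with an interval of the fold that included no change (0.855 to 1.62), and Bcam, an adhesion molecule gene, had 4 and 20 reads, a log2 difference of 2.06 and a fold of 4.16 (1.66 to 19.9). Of the 4 genes, the interval of the fold lay below no change for 2 (Tomm40 and Clptm1) and above it for 1 (Bcam), where 28.0% of all tested genes lay below and 28.1% above. With 4 genes nothing is read from these numbers.

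The κB consensus was also compared with the changes of all genes, as a description. Among tested genes with a RefSeq window whose normalized counts averaged 100 or more, 737 held a match and 5566 did not. The median log2 difference was -0.023 with a match and -0.062 without. The interval lay above no change for 26.2% of the genes with a match and 23.0% of those without, and below it for 34.1% and 36.7%. Among the NF-κB target genes listed, 6 of 17 with a window held a match (35.3%), among the further inhibitors and A20 partners 5 of 8 (62.5%), among the IKK genes 2 of 10 (20%), and among the antigen receptor genes 1 of 2 (50%), where 9.55% of all symbols with a window did so.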
